A study of Mus musculus with 6 samples.

Results

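The regions described here were genome tiles rich in H3K27me3 without H3K9me3 in mouse embryonic stem cells (ESCs), which are pluripotent cells of the early embryo grown in culture. They were the autosomal 2 kb tiles in which the mean of the 2 H3K27me3 libraries was at least 1.5 and the mean of the 2 H3K9me3 libraries was below 1, both on the deposited log2 scale of observed over expected reads. This rule found 7620 of 1236182 autosomal tiles and of 1327469 tiles in all, which was 0.616% of the autosomal tiles and 15.2 Mb. Merging adjacent tiles gave 3771 domains. H3K27me3, H3K9me2 and H3K9me3 were measured by ChIP-seq, which sequences DNA pulled down with an antibody to a histone mark. Each mark had 1 library per genotype, 6 libraries in all.

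The 2 genotypes were Dicer KO, labelled as Dicer -/-, and Dicer KO/Dnmt1 cKO, labelled as Dicer/Dnmt1 -/-. Dicer makes small RNAs from double-stranded precursors, and Dnmt1 copies DNA methylation onto the new strand after replication. Both groups lacked Dicer, so there was no wild-type library among those analysed, and the comparison between them is of Dnmt1 in cells without Dicer. The Dicer KO line was made by CRISPR/Cas9 in ESCs with loxP-flanked Dnmt1 and grown from single-cell colonies, and 4OHT induced the conditional deletions. The labels give the background strain as E14, while the study's methods give C57BL/6 for the parent line, and the labels give no day after Dnmt1 deletion.

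H3K27me3 is written by Polycomb repressive complex 2 (PRC2), whose catalytic subunit is Ezh2 or Ezh1, and is bound by Cbx proteins of Polycomb repressive complex 1 (PRC1). In ESCs it is known for covering the CpG-rich promoters of genes that direct later development, which are silent or nearly silent in these cells. H3K9me3 and H3K9me2 mark other forms of silent chromatin, the former at retrotransposons and satellite repeats and the latter over broad regions poor in active genes.

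The sequences upstream of 5 start sites show the range of CpG content among and beside the H3K27me3 tiles. Each is the 200 bases before the annotated start of a gene in NCBIM37, read 5′ to 3′ on the strand of the gene, with every CpG in capitals. The genes are Nkx1-1, a homeobox gene whose domain held most H3K27me3 per tile among domains of at least 2 tiles (chr5:33776626-33776825, minus strand, 25 CpG), Evx2, a homeobox gene beside the Hoxd cluster (chr2:74497919-74498118, minus strand, 9 CpG), Wnt1, a secreted signal of brain patterning (chr15:98620088-98620287, plus strand, 19 CpG), Cyp8b1, a bile acid enzyme in an H3K27me3 domain without a CpG-rich tile as defined below (chr9:121825424-121825623, minus strand, 4 CpG), and Fzd7, a Wnt receptor whose start tile was not among the H3K27me3 tiles (chr1:59538791-59538990, plus strand, 15 CpG). Fzd7 was picked for this comparison after its values were seen.
Nkx1-1: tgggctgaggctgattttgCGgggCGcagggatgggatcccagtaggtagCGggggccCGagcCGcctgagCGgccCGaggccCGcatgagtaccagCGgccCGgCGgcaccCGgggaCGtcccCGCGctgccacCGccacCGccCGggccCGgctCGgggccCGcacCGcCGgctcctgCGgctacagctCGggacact
Evx2: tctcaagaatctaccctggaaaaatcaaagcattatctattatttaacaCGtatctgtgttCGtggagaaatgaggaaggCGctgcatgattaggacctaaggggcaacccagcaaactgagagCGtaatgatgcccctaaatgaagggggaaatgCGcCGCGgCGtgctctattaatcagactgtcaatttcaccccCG
Wnt1: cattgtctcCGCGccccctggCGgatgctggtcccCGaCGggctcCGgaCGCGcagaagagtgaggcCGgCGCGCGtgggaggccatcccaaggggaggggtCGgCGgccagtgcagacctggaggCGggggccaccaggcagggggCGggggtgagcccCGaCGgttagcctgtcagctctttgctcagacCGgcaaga
Cyp8b1: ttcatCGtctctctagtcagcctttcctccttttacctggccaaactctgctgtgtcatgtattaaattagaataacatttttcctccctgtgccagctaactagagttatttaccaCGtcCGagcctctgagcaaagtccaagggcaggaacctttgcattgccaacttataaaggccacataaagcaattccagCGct
Fzd7: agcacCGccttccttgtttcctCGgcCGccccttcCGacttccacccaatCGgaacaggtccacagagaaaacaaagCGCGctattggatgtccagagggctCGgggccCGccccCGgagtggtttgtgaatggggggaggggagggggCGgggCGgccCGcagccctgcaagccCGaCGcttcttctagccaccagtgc

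H3K27me3 in the tiles of these 5 starts, in units of the mean tile of the library, was 11.7 in Dicer KO and 6.86 in Dicer KO/Dnmt1 cKO for Nkx1-1. It was 12.5 and 6.74 for Evx2, 10.9 and 7.24 for Wnt1, and 3.27 and 4.12 for Cyp8b1. Fzd7, whose upstream sequence holds more CpG than those of Evx2 and Cyp8b1, stood at 0.244 and 0.374. Over all autosomal coding genes, the 1376 with a start in an H3K27me3 tile had a median of 12 CpG in this window, against 7 for the other 20042. At least 10 CpG were present in 61.0% of the former, in 42.1% of the latter and in 43.3% of all 21418. The motif searched was CG, which reads the same on both strands.

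The tables used for the 6 libraries held between 16834940 and 27162045 reads, with the H3K27me3 libraries at 27162045 for Dicer KO and 21280804 for Dicer KO/Dnmt1 cKO. The median tile held 13 to 18 reads. The mean tile stood at a log2 value of -0.37 to -0.38 in every library, so the limit of 1.5 was 3.67 times the mean tile and the limit of 1 was 2.59 times. Levels below are given as fold over the library's mean tile, without correction for input. The part of sequencing coverage in these levels was not tested. Differences between genotypes are given as log2 ratios of shares of the library, with a 95% interval that covers counting error only. Reads from PCR copies are not independent molecules, and without a second library of any group no difference could be set against the spread between replicates, so p-values are left out. Shares of a library do not show a change in the total amount of a mark, and fewer cells with a mark cannot be told apart from less of it per cell.

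As the rule demanded, the tiles were high in H3K27me3 and the values that chose them are given as a description. Their summed level was 5.52 times the mean tile in Dicer KO and 4.27 times in Dicer KO/Dnmt1 cKO, and they held 3.17% and 2.45% of all H3K27me3 reads. A tile had between 56 and 306 reads with a median of 103 in Dicer KO, and between 36 and 165 with a median of 65 in Dicer KO/Dnmt1 cKO. The H3K9me3 limit removed 363 of the 7983 tiles that passed the H3K27me3 limit. Those 363 tiles, rich in both marks, had a median GC content of 44.7% against 52.1%, a median of 17 CpG against 38, and CpG-rich sequence in 6.06% against 43.7%. Their median H3K9me2 was 5.44 times the mean tile in Dicer KO and 5.11 in Dicer KO/Dnmt1 cKO.

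The boundary of the set was gradual. The highest tile below the H3K27me3 limit had a mean log2 value of 1.4999 and the lowest above it 1.5002, and the neighbours of the H3K9me3 limit were at 0.99978 and 1.0042. Between 1.5 and 1.6 lay 1779 tiles with a median of 27 CpG, of which 11.5% held a start site. Between 1.4 and 1.5 lay 2490 tiles with a median of 26 CpG, of which 7.63% held one. CpG content therefore differed little across the limit, and the share with a start differed more.

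The H3K27me3 tiles were rich in GC and CpG, which the rule had not used. Median GC content was 52.1% against 41.4% in the other autosomal tiles, and the median number of CpG in 2 kb was 38 against 14. The ratio of observed to expected CpG was 0.30 against 0.16. Tiles holding a CpG-rich window (500 bases with at least 55% GC and a CpG ratio of at least 0.6) made up 43.7% of the H3K27me3 tiles, 3330 in number, and 2.00% of the others. Most CpG-rich tiles were nevertheless not H3K27me3 tiles, since 24626 of them lay outside the set, where summed H3K27me3 stood at 0.875 and 0.761 times the mean tile.

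Start sites of genes lay in 20.3% of the H3K27me3 tiles, 1548 in number, and in 2.47% of the other autosomal tiles. A further 49.2% lay in gene bodies without a start, and 30.5%, or 2324 tiles, lay outside annotated genes. Within 10 kb of a start were 74.6% of the H3K27me3 tiles against 22.3% of the others. Of the start tiles in the set, 86.0% were CpG-rich, against 34.7% of the start tiles outside it. The tiles with a start held 6.16 and 4.39 times the mean tile in Dicer KO and Dicer KO/Dnmt1 cKO, and those outside genes 5.07 and 4.13 times.

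Protein-coding genes accounted for most of the starts, with 1376 of 21418 autosomal coding genes (6.42%, Wilson 95% interval 6.10 to 6.76). Long intergenic noncoding RNAs (lincRNAs) had the larger share, 143 of 1232 or 11.6% (9.94 to 13.5). Pseudogenes stood far lower, at 23 of 4055 or 0.567%. Chromosomes 11 and 19 had the highest shares of H3K27me3 tiles at 1.23% and 0.994%, and chromosome 16 the lowest at 0.323%.

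Most domains were narrow, but wide ones carried much of the set. Of the 3771 domains, 2093 (55.5%) were a single tile, 807 had 2 tiles and 871 had 3 or more. The 271 domains of at least 5 tiles held 25.2% of all H3K27me3 tiles, and 33 had at least 10 tiles. A start site lay in 1424 domains, which was 37.8% (Wilson 95% interval 36.2 to 39.3), and a coding start in 1302. More than 1 coding start lay in 61 domains, while 973 overlapped no annotated gene. Neither a start nor a CpG-rich tile was found in 1576 domains.

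Wider domains held a gene start more often, and the part of the number of tiles in this was not tested. Coding starts were found in 15.8% of single-tile domains, 49.4% of those with 2 tiles, 59.7% of those with 3 or 4, 78.2% of those with 5 to 9, and 84.8% of those with 10 or more. Per 100 tiles the domains with a coding start numbered 15.8, 24.7, 18.0, 12.6 and 6.33. A domain with several starts counted as 1 here. Width therefore limits this number, which is not a rate of starts per tile. H3K27me3 per tile in Dicer KO rose along the same classes from 4.61 to 5.22, 5.78, 6.36 and 6.87 times the mean tile. H3K9me2, which was not used to choose the tiles, ran the other way, at 0.972, 0.798, 0.784, 0.717 and 0.592 in Dicer KO and from 1.05 to 0.704 in Dicer KO/Dnmt1 cKO. The median number of CpG did not follow width, at 33, 46, 37, 43.5 and 42.5 per tile.

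The widest domain spanned 84 kb of the Hoxc cluster, from the gene Gm17649 past Hoxc13 to Hoxc8 (chr15:102744001-102828000, 42 tiles). Hox genes encode the homeodomain factors that set position along the body axis. Across this domain H3K27me3 stood at 6.49 times the mean tile in Dicer KO and 4.88 in Dicer KO/Dnmt1 cKO, and H3K9me2 at 0.584 and 0.623. Its single tiles ranged from 4.01 to 9.43 in Dicer KO, and only 16 of the 42 were CpG-rich. The Hoxb domain from Hoxb8 to Hoxb4 came second at 48 kb (chr11:96134001-96182000), with H3K27me3 at 7.25 and 5.49 and H3K9me2 at 0.355 and 0.407.

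Hairpins of microRNAs (miRNAs) of the Hox clusters lay inside these domains. Mir196a-2 lay in the Hoxc domain and Mir10a in the Hoxb domain, and both families of mature RNA are known to target transcripts of Hox genes. Both genotypes lacked Dicer, and no mature miRNA was measured in these libraries. Their RefSeq mature sequences (GRCm38.p6 table) are shown with the seed, bases 2 to 8, in capitals.
miR-196a-5p: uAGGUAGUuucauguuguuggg
miR-10a-5p: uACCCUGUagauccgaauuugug
The hairpin tile of Mir196a-2 held 7.87 and 5.93 times the mean tile of H3K27me3 in Dicer KO and Dicer KO/Dnmt1 cKO, and that of Mir10a 4.20 and 3.24 times. In all, 33 of 1468 autosomal miRNA entries of the annotation started in an H3K27me3 tile (2.25%), and 14 of the 33 matched the RefSeq table by symbol.

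The other wide domains each covered 1 or a few regulators of development. Rgma, a guidance molecule for axons, lay in a 46 kb domain (chr7:80514001-80560000) at 5.86 and 4.32 times the mean tile. Lmx1b, a LIM homeobox gene of limb and midbrain, lay in one of 44 kb (chr2:33460001-33504000) at 6.53 and 4.81. The remaining 10 of the 15 widest, apart from the Hoxd domain below, were those of Neurod2, Pax7, Hmx1 with E130018O15Rik, Pax2, Ebf3, Dll4, Uncx, Pitx1, Lbx1 and Onecut1, between 22 and 28 kb wide. All of these 10 except Dll4, a ligand of Notch receptors, and E130018O15Rik are known as transcription factor genes. Their H3K27me3 lay between 6.55 (Onecut1) and 8.12 (Ebf3) in Dicer KO and between 4.81 (Onecut1) and 6.24 (Pax7) in Dicer KO/Dnmt1 cKO.

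The Evx2 domain (chr2:74492001-74534000, 42 kb) ran over the starts of Evx2, Hoxd13, Hoxd12, Hoxd11 and Hoxd10 and was among both the widest and the strongest. H3K27me3 stood at 9.13 times the mean tile in Dicer KO and 6.10 in Dicer KO/Dnmt1 cKO, with 3922 and 2054 reads. The highest of its 21 tiles reached 12.95 and 7.55, 28 kb from its start, and the lowest in Dicer KO, at its end, stood at 5.08 and 4.30. In every one of the 21 tiles Dicer KO was the higher. H3K9me2 was at 0.342 and 0.345 over the domain. In the 6 tiles 10 to 20 kb before the domain the level in Dicer KO lay between 0.946 and 1.73. Closer in, H3K27me3 tiles 8, 6 and 4 kb before it stood at 1.58, 1.03 and 0.867, and the tile next to it at 0.552. The 10 tiles after the domain, 1 of them an H3K27me3 tile, had a median of 0.158 and a highest value of 0.552, as low as inside.

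**Figure D1:**
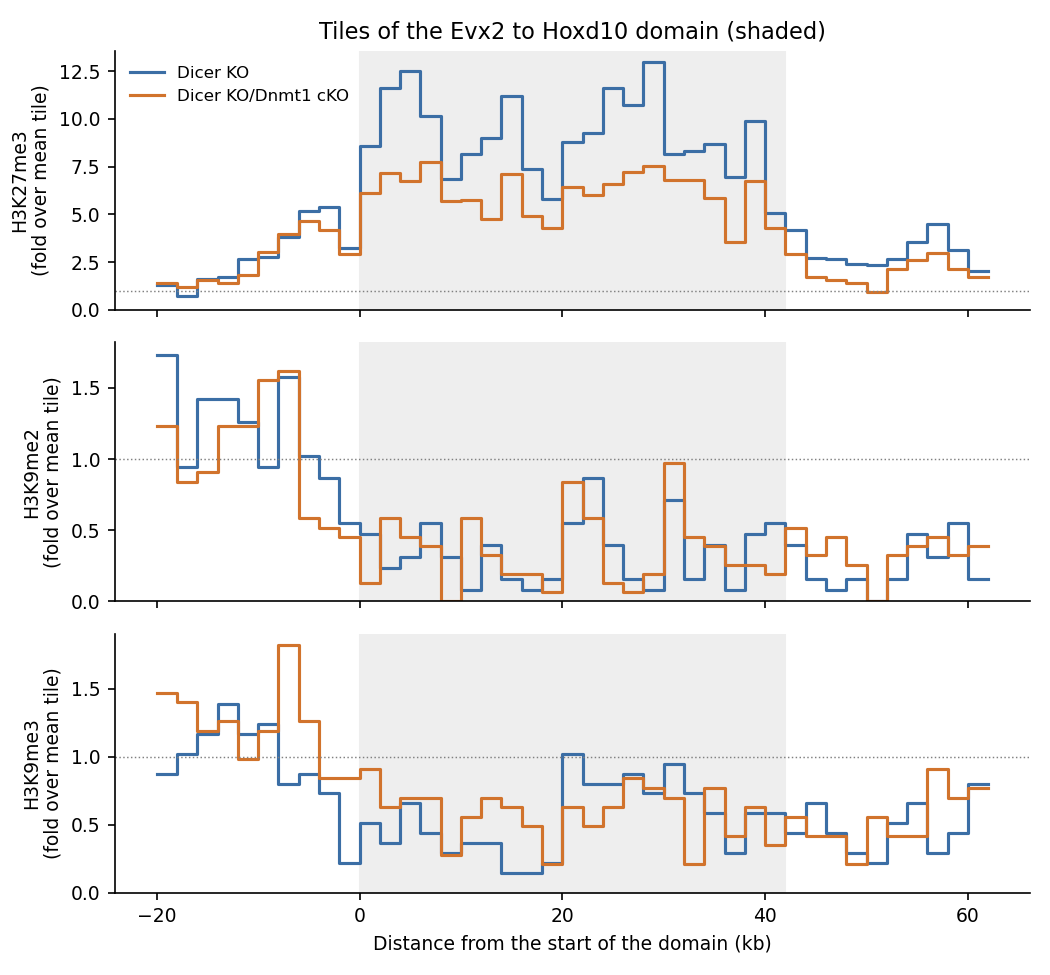
H3K27me3, H3K9me2 and H3K9me3 in 2 kb tiles (fold over the library's mean tile) against distance from the start of the Evx2 to Hoxd10 domain in kb, with 1 line for each genotype and the domain shaded. H3K27me3 lies between 5.08 and 12.95 inside the domain in Dicer KO and is lower in Dicer KO/Dnmt1 cKO, and H3K9me2 is below 1 in all tiles of the domain.

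Among domains of at least 2 tiles, the most H3K27me3 per tile was found at Nkx1-1 (chr5:33770001-33780000, 10.7 and 7.35 times the mean tile), Prdm12 (9.68 and 7.01), the stretch of Nfix and Lyl1 (9.32 and 5.99), Evx2, and Cacna1i (8.33 and 6.80). Prdm12 is a regulator of pain-sensing neurons, Lyl1 a factor of blood cells, Nfix a factor of neural and muscle development, and Cacna1i a T-type calcium channel. H3K9me2 in these domains ranged from 0.197 to 0.789 in Dicer KO and from 0.291 to 0.874 in Dicer KO/Dnmt1 cKO.

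Domains of at least 3 tiles gave 1742 edges. H3K27me3 in Dicer KO averaged 6.49 times the mean tile 1 tile inside the last member, 5.26 in the last member and 3.05 in the next tile out, a drop that the limit itself produces. It then declined slowly to 2.08 at 20 kb. These surroundings included H3K27me3 tiles of other domains, 11.7% of the tiles at 4 kb and 6.31% at 20 kb, and their part in the level was not tested. H3K9me2 in Dicer KO, free of the rule, was 0.644 inside, 0.877 in the last member, 0.961 in the next tile and 1.07 at 20 kb. In Dicer KO/Dnmt1 cKO the same positions read 0.733, 0.969, 1.04 and 1.11. CpG content was highest 1 tile inside, at a mean of 72.6 per tile, and 28.0 just outside.

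**Figure D2:**
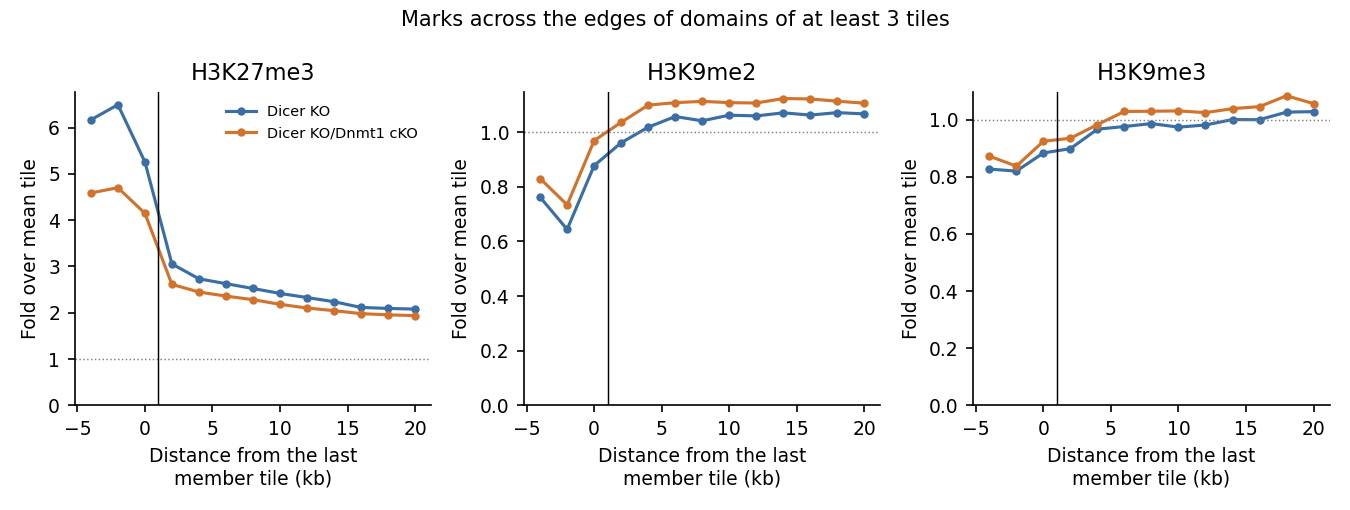
Mean level of each mark (fold over the mean tile) against distance in kb from the last tile of 1742 domain edges, negative values being inside, for both genotypes. H3K27me3 falls from 6.49 to 3.05 over the edge in Dicer KO, and H3K9me2 and H3K9me3 rise to near 1 outside.

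Genes for developmental transcription factors started in H3K27me3 tiles more often than coding genes as a whole. Of 231 autosomal genes for developmental transcription factors (Hox, other homeobox, Sox, Fox, Gata, Tbx and bHLH genes), 155 had their start in an H3K27me3 tile, which was 67.1% (Wilson 95% interval 60.8 to 72.8), against 6.42% of all coding genes. Other homeobox genes had the highest share of these lists at 75 of 99, followed by Sox, Fox, Gata and Tbx genes at 36 of 52, Hox genes at 23 of 39 and bHLH lineage genes at 21 of 41. The lists accounted for a minority of the set, since 231 of the 1376 coding genes with a start in an H3K27me3 tile were on any list.

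Within lists, genes are ranked here by the mean deposited log2 value of the start tile over both H3K27me3 libraries, an order that can differ in a single library. Pax7, a factor of muscle stem cells, came first among the other homeobox genes at 12.5 times the mean tile in Dicer KO and 8.55 in Dicer KO/Dnmt1 cKO. Tlx2, of the enteric nervous system, came next by that mean at 11.2 and 7.92, although Evx2 stood at 12.5 in Dicer KO, level with Pax7 and above Tlx2. The low end of the same list was Meis1, a Hox cofactor, at 0.733 and 0.499. Foxb2 and Foxe3, forkhead factors of brain and lens, led the Sox, Fox, Gata and Tbx list at 11.04 and 5.61 and at 10.9 and 5.68. Tbx6, of the paraxial mesoderm, was lowest there at 0.0977 and 0.374. Among bHLH genes, the neuronal factors Neurod2 (10.6 and 8.23) and Neurog1 (11.3 and 7.42) stood highest and Scx, of tendon, lowest (0.391 and 0.686). Within each list the start tiles thus ran from several times the mean tile to below it.

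The 4 Hox clusters were not alike. Start tiles in the set numbered 8 of 10 for Hoxb, 8 of 9 for Hoxc, 6 of 9 for Hoxd and 1 of 11 for Hoxa, the exception being Hoxa11. Median H3K27me3 over the start tiles of a cluster in Dicer KO was 6.23, 5.96 and 6.94 for Hoxb, Hoxc and Hoxd, and 2.64 for Hoxa. In Dicer KO/Dnmt1 cKO the medians were 5.02, 4.62 and 3.56, and 2.12 for Hoxa. The highest Hoxa start stood at 6.40 in Dicer KO, and Hoxa13 (1.32 and 0.312) was among the lowest Hox genes. Hoxd13 (11.2 and 7.11), Hoxd11 (11.6 and 6.61), Hoxb8 (9.97 and 6.92) and Hoxb7 (10.7 and 6.18) were the highest. The split by cluster was made after the values were seen.

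Genes of the Wnt list divided by role. Of the Wnt list, 18 of 39 genes started in an H3K27me3 tile, and these were 15 of 19 Wnt ligands, 3 of 10 secreted inhibitors (Sfrp5, Dkk2 and Frzb) and 0 of 10 Frizzled receptors. Wnt1 stood highest at 10.9 and 7.24 times the mean tile, then Wnt3 at 8.80 and 5.74, Wnt9b at 8.89 and 5.05 and Wnt11 at 8.70 and 5.05. Frizzled receptors, which bind the ligands at the cell surface, ranged from 0.244 (Fzd7) to 4.79 (Fzd4) in Dicer KO, with a median of 1.39 against 6.21 for the ligands. Fzd4 lay just under the limit at a mean log2 value of 1.45. This split by role was made within the list after the values were seen.

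Of the Fgf, Bmp and Hedgehog list, 18 of 43 genes started in an H3K27me3 tile. All 3 Hedgehog ligands did, with Shh, the signal of limb and neural tube patterning, at 9.82 and 6.11 and Ihh, of cartilage, at 8.94 and 6.42. Fgf genes, picked by symbol, numbered 7 of 20, led by Fgf11 (11.04 and 6.30) and Fgf8 (9.92 and 6.36). Bmp and Gdf ligands numbered 5 of 12, and Bmp antagonists, also on the list, 2 of 3. The list also held some of the lowest start tiles, such as Nodal, a signal of early embryos, at 0.586 and 0.312 and Fgf20 at 0.0977 and 0.312. Neuronal channels and receptors had 32 of 54 starts in the set. Among the highest were the calcium channel Cacna1g (10.7 and 6.80), the potassium channel Kcnk9 (9.87 and 5.36) and the glutamate receptor Grm4 (8.55 and 5.74).

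Housekeeping genes had no start in an H3K27me3 tile (0 of 33, Wilson upper bound 10.4%), where all coding genes stood at 6.42%. The median level of the housekeeping genes was 0.195 times the mean tile in Dicer KO and 0.312 in Dicer KO/Dnmt1 cKO. Of 21 autosomal pluripotency genes, the markers of the labelled cell type, 3 had any such tile in the gene (14.3%, against 10.5% of all coding genes). A start in such a tile was found for 1 of them (4.76%, against 6.42%). The start was that of Lin28a, an RNA-binding protein of stem cells, at 4.25 and 4.55. Prdm14 lay just under the limit with a mean log2 value of 1.45, and the median of the list was 0.489 and 0.312. Both counts lay near the shares of all coding genes, so they say nothing about the label of the cells. ChIP of silent marks also measures no expression. Dnmt1 and Dicer1, the genes deleted, had no H3K27me3 tile, and their start tiles held 5 and 4 and 4 and 2 reads of the mark.

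The genes of the Polycomb complexes had no start in the set either. The counts were 0 of 10 for PRC2 (Wilson upper bound 27.8%) and 0 of 19 for PRC1 (16.8%). Both bounds hold the 6.42% of all coding genes, so these counts do not set the complexes apart. Within the bodies of PRC1 genes there were H3K27me3 tiles at Bmi1 and Cbx8, or 10.5% of these genes, a share like the 10.5% of all coding genes. Bmi1, a RING-finger partner in PRC1, had a 6 kb domain (chr2:18608001-18614000) at 8.44 and 5.22 times the mean tile and a separate tile at 8.70 and 5.43. Cbx8, which binds H3K27me3, had 1 tile at 8.36 and 6.36. Of 7 cell cycle inhibitor genes, Cdkn1c alone started in the set (6.26 and 3.74), a share of 14.3% with a wide interval of 2.57 to 51.3. Cdkn1b, a brake on cyclin-dependent kinases, stood at 0.244 and 0.125.

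Imprinted genes, which are expressed from 1 parental copy, had 7 of 38 starts in the set, namely Dio3, Grb10, Dlk1, Cdkn1c, Igf2, Ascl2 and Phlda2. A start tile with H3K9me3 of at least 1 was found at 10 of the 38 (26.3%), against 83 of 21418 coding genes (0.388%). Dio3, an enzyme that inactivates thyroid hormone, lay in an 18 kb domain (chr12:111506001-111524000) at 6.01 and 4.91 times the mean tile. The growth factor Igf2 lay in one of 14 kb (chr7:149840001-149854000) at 7.35 and 5.67. Of 23 germline genes 2 started in the set, Tdrd6 (6.65 and 5.61) and Tdrd1 (3.71 and 4.12), both of the Tudor family of the germ granule. The interval of that share, 8.70% (2.42 to 26.8), holds the 6.42% of all coding genes. This count therefore does not set germline genes apart. Gene families picked by symbol gave 0 of 1106 olfactory receptor genes, 0 of 327 vomeronasal receptor genes, 6 of 362 zinc finger protein genes (1.66%) and 8 of 97 keratin genes (8.25%), where all coding genes stood at 6.42%.

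**Figure D3:**
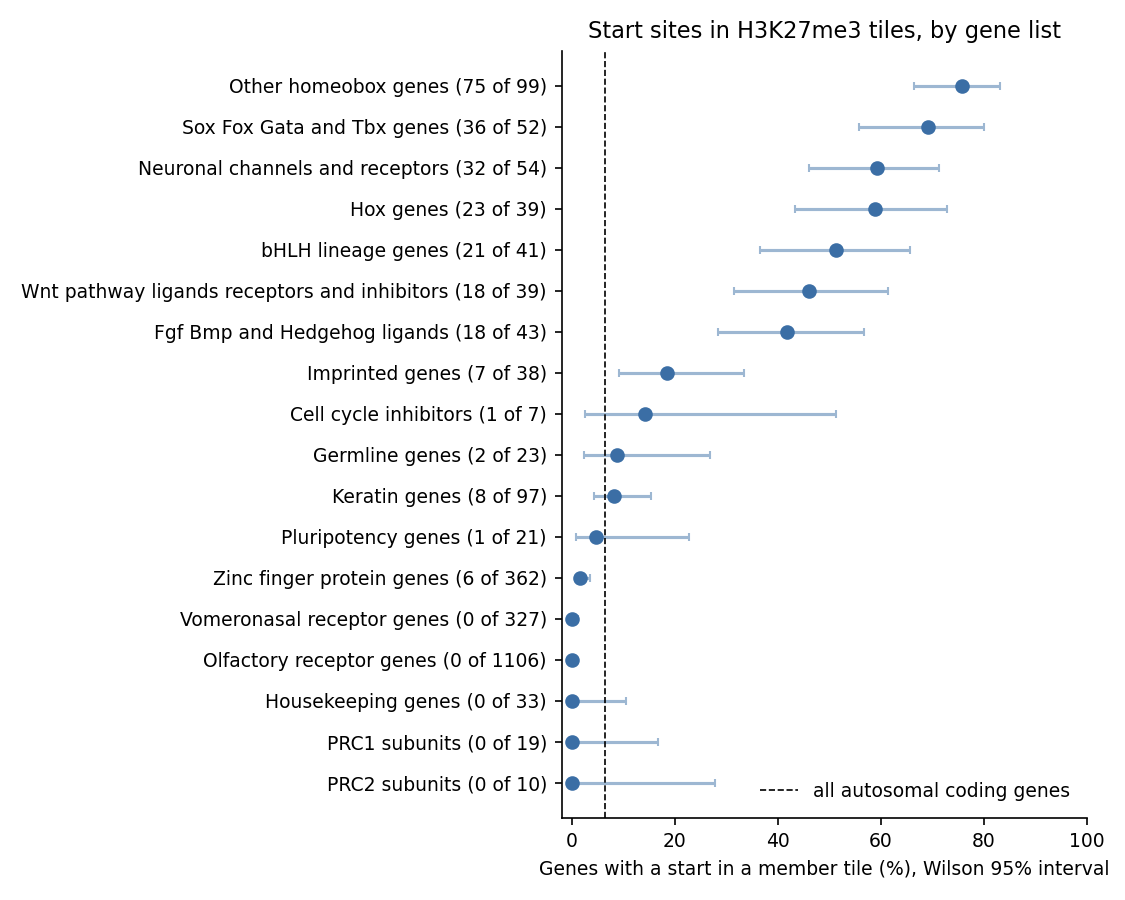
Share of genes with a start in an H3K27me3 tile (%, points) with Wilson 95% intervals for each gene list, the counts beside each name and the dashed line at the 6.42% of all autosomal coding genes. Developmental and signalling lists lie between 41.9% and 75.8%, and housekeeping, olfactory and vomeronasal genes and PRC1 and PRC2 subunits at 0.

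H3K9me2 was low in the H3K27me3 tiles. Its summed level was 0.814 times the mean tile in Dicer KO and 0.898 in Dicer KO/Dnmt1 cKO, against 1.04 in both genotypes for the other autosomal tiles. The median deposited log2 value was -0.79 against -0.29, and 17 of the 7620 tiles had a mean of at least 1. The level was lowest in CpG-rich H3K27me3 tiles, at 0.538 and 0.609, and stood at 1.03 and 1.12 in the other H3K27me3 tiles. H3K9me3, kept low by the rule, was at 0.874 and 0.920.

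GC content moved with this difference. Between 50% and 55% GC the median H3K9me2 value was -0.62 in H3K27me3 tiles and -0.67 in other tiles, between 55% and 60% it was -1.36 and -1.68, and from 60% to 75% it was -2.10 and -2.96. At these GC contents the H3K27me3 tiles were therefore not the lower ones. Between 40% and 45% GC they were, at -0.36 against -0.19, as they were between 30% and 40% at -0.68 against -0.23. CpG-rich tiles outside the set had less H3K9me2 than those within it, at 0.386 and 0.433 times the mean tile. The part of GC content in the level of H3K9me2 was not tested further.

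**Figure D4:**
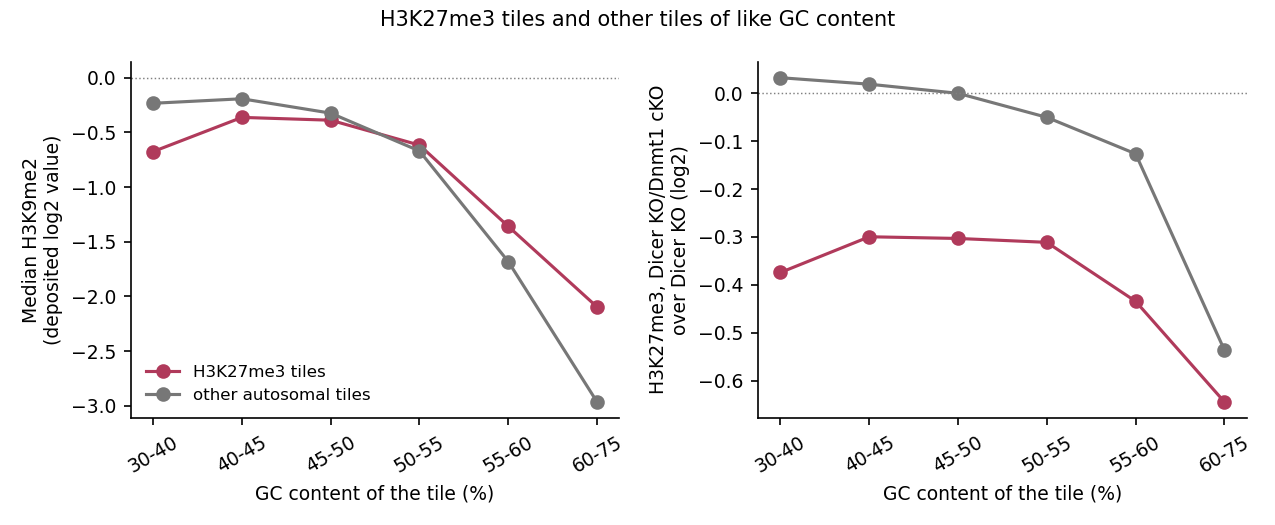
Left, median deposited log2 value of H3K9me2, and right, log2 difference in H3K27me3 between genotypes, against GC content of the tile (%), for H3K27me3 tiles and other autosomal tiles. The curves of H3K9me2 cross near 50% GC, while the H3K27me3 difference is lower in the H3K27me3 tiles in each class, from -0.37 to -0.64 at the ends.

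The comparison of Dicer KO/Dnmt1 cKO with Dicer KO asks how the marks stood after loss of Dnmt1. H3K27me3 in the tiles was lower in Dicer KO/Dnmt1 cKO, at 4.27 against 5.52 times the mean tile, a log2 difference of -0.37 (95% interval -0.38 to -0.37). The other autosomal tiles differed by 0.01. A lower value was found in 86.4% of the H3K27me3 tiles, where 50% of all tiles with 10 or more reads on average were lower. Since both H3K27me3 libraries took part in choosing the tiles, these values are a description. A difference of 2-fold or more downward was met by 143 tiles or 1.88%, where the background was 2.78%, and 2-fold upward by 0 tiles, against 3.05%. The median H3K27me3 tile held 103 and 65 reads and the median autosomal tile 19 and 15. Counting error is wider in tiles with fewer reads, so these shares are not on a like footing.

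Choosing the tiles on 1 genotype and reading them in the other gave a direction that did not depend on the shared choice. The 10755 tiles chosen on the Dicer KO libraries alone held 5.10 times the mean tile there and 3.78 in Dicer KO/Dnmt1 cKO, where 47.7% passed the limit against 0.554% of all autosomal tiles. The 6471 tiles chosen on the Dicer KO/Dnmt1 cKO libraries alone held 4.51 there and 5.36 in Dicer KO, where 79.3% passed against 0.902%. The log2 difference was -0.43 in the former and -0.25 in the latter, so it was negative even where the choice favoured Dicer KO/Dnmt1 cKO. Both choices shared 5116 tiles, which was 47.6% of the former and 79.1% of the latter.

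Among autosomal tiles with a mean H3K9me3 value below 1, the difference grew with the level of H3K27me3. Tiles with a mean log2 value below -1 had more of the mark in Dicer KO/Dnmt1 cKO, by 0.17. Those from -0.5 to 0.5 differed by 0.01 and -0.01, those from 1 to 1.5 by -0.11, and those from 1.5 to 2, from 2 to 2.5 and above 2.5 by -0.30, -0.47 and -0.55. The 363 tiles rich in both marks lay outside these classes. Their summed H3K27me3 reads differed by 0.29 (0.28 to 0.30), and 1 tile held 36.5% of these reads in Dicer KO. Of the 363, 193 were lower in Dicer KO/Dnmt1 cKO and 170 higher. A lower contrast between rich and poor tiles in the classes above moved with the lower level of the H3K27me3 tiles. Its part in the difference was not tested. With 1 library per genotype, genotype and library cannot be told apart.

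**Figure D5:**
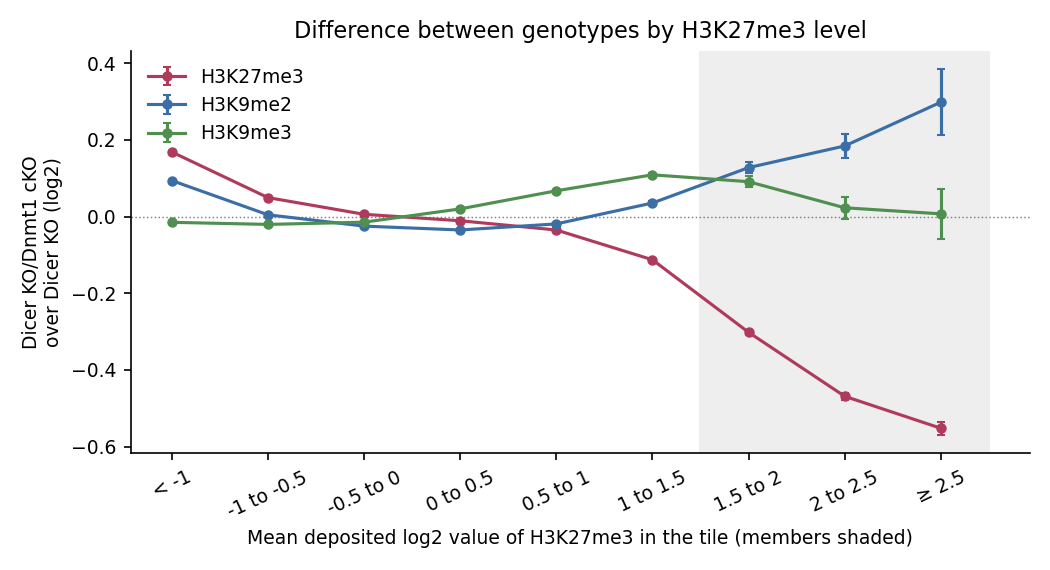
Log2 difference between Dicer KO/Dnmt1 cKO and Dicer KO for 3 marks against the mean deposited log2 value of H3K27me3 in the tile, with 95% counting intervals and the classes above the limit of 1.5 shaded. Only autosomal tiles with a mean H3K9me3 value below 1 are included. The H3K27me3 difference runs from 0.17 in the poorest tiles to -0.55 in the richest, while that of H3K9me2 reaches 0.30 in the richest.

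CpG content and starts moved with the difference too. CpG-rich H3K27me3 tiles differed by -0.49 and the others by -0.26, and tiles with a start by -0.49 against -0.34 without one. At 60% to 75% GC the H3K27me3 tiles differed by -0.64, and so did tiles outside the set, by -0.54, while at 45% to 50% GC the values were -0.30 and 0.00. Single-tile domains differed by -0.26 and those of 10 or more tiles by -0.42.

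Over the 1796 domains with at least 200 H3K27me3 reads in both libraries together, 1710 were lower in Dicer KO/Dnmt1 cKO and 86 higher. The counting interval lay below 0 in 1270 and above 0 in 0 of them, and the median difference was -0.40. A fall of at least 2-fold was seen in 9. The largest were at Nbl1, a secreted Bmp antagonist (7.53 in Dicer KO and 2.87 in Dicer KO/Dnmt1 cKO, -1.39), Pgr, the progesterone receptor (8.02 and 3.06, -1.39), Cdk5r2, an activator of the neuronal kinase Cdk5 (11.6 and 5.36, -1.11), Grin2d, an NMDA receptor subunit (8.31 and 3.93, -1.08), and Maml3, a Notch coactivator (5.64 and 2.74, -1.04). These 5 domains were 1 or 2 tiles wide and rich in CpG, with 126 to 213 per tile. Those named for Cdk5r2 and Grin2d overlapped the gene but held no annotated start. The start tile of Grin2d stood at 4.84 and 4.18, a difference of -0.21 (interval -0.66 to 0.24).

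The largest rises were smaller and none had an interval above 0. They were at Cd72, a B cell receptor (5.03 in Dicer KO and 6.49 in Dicer KO/Dnmt1 cKO, 0.37, interval -0.03 to 0.76), Cyp8b1 (3.42 and 4.27, 0.32), Gata4, a factor of heart and endoderm (3.57 and 4.27, 0.26), Plcb2, a phospholipase of taste cells (3.60 and 4.28, 0.25), and Crhr1, a receptor of the stress axis (3.67 and 4.32, 0.24). CpG stood at 29 to 51.5 per tile in these 5, well below the domains that fell most. The domains of Gata4, Plcb2 and Crhr1 overlapped the gene but held no annotated start.

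Start tiles of the listed genes shared the direction of the whole set. Of the 155 developmental transcription factors, 151 were lower in Dicer KO/Dnmt1 cKO, 113 of them with an interval below 0, and 4 were higher, none with an interval above 0. These were 97.4% and 72.9% of the 155, against 93.4% and 58.1% of the 1340 coding start tiles of the set and 86.4% and 38.9% of all H3K27me3 tiles. Summed differences were -0.47 for Hox genes, -0.59 for other homeobox genes, -0.59 for Sox, Fox, Gata and Tbx genes and -0.52 for bHLH genes. They were -0.66 for the Wnt list and -0.69 for the Fgf, Bmp and Hedgehog list. All coding genes with a start in the set gave -0.50, so the lists lay on both sides of it. Wnt8b, a ligand of the forebrain, was the Wnt gene that was higher, at 4.59 and 5.12.

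Imprinted loci held H3K27me3 tiles with little difference as well as tiles with more. The domain over Rian, Mir341 and Mir1188, in the maternally expressed noncoding part of the Dlk1 locus (chr12:110848001-110854000), stood at 4.19 in Dicer KO and 4.62 in Dicer KO/Dnmt1 cKO, a difference of 0.14 (interval -0.12 to 0.40). The tile of H19 and Mir675 stood at 4.20 and 4.24 with 86 and 68 reads. Its interval (-0.45 to 0.47) was wide enough to hold the -0.37 of the whole set. Unlike the Rian domain, Cdkn1c (6.30 and 4.25 over its 14 kb domain, -0.57), Phlda2 (6.43 and 3.81, -0.76) and Ascl2 (5.91 and 3.37, -0.81) were lower, with intervals below 0. Rian and H19 were picked after their values were seen.

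H3K9me2 in the H3K27me3 tiles was a little higher in Dicer KO/Dnmt1 cKO, by 0.14 on the log2 scale (0.13 to 0.15), against 0.00 in the other autosomal tiles. Among the 4292 H3K27me3 tiles that averaged 10 or more H3K9me2 reads, 39.6% were lower, where the background was 50%. At least 2-fold higher were 7.08%, where it was 4.03%, and at least 2-fold lower 1.72%, where it was 2.91%. GC content moved with this difference as well, since other tiles of 50% to 55% GC differed by 0.14 and H3K27me3 tiles of that content by 0.15. H3K9me3 differed by 0.07 (0.06 to 0.09). Of 5215 H3K27me3 tiles with enough H3K9me3 reads, 43.3% were lower against a background of 49%, 5.98% were at least 2-fold higher against 4.07%, and 3.43% at least 2-fold lower against 3.37%. In the 5 classes of domain width the H3K9me2 difference was 0.11, 0.15, 0.14, 0.17 and 0.25.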

How the data were processed

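ChIP-seq of H3K27me3, H3K9me2 and H3K9me3 was done in ESCs of 2 genotypes, Dicer KO and Dicer KO/Dnmt1 cKO, giving 1 library per group. After trimming in Trim Galore, the authors aligned the reads by Bowtie2 to NCBIM37 (the submitters' processing notes name Bowtie and NCBIM37), dropped reads with a mapping quality under 20 and quantified tiles in SeqMonk. The deposited values were log2 observed over expected reads in 2 kb tiles, whereas the methods state 1 kb. Removal of duplicate reads is not given in the sources used here. Of 25 value columns, 6 matched the labels and the other 19, an input column among them, stayed unused.

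The antilogs gave back whole reads, since they were whole multiples of 1 step in each library (tolerance 0.1 reads, 1 tile outside it in 1 library), with empty tiles at 0.9 of a read. Counts, sums, Wilson intervals and counting intervals were computed with Python 3.11.15, numpy 2.4.6 and pandas 2.3.3, and plots with matplotlib 3.10.9. Steps were tested on simulated data. Genes came from GENCODE vM1 (37273 genes, 22367 of them protein-coding) and sequence from NCBIM37, whose 22 chromosome lengths matched the table. CpG-rich windows were stepped by 50 bases. Shares of tiles that differed between genotypes counted only tiles averaging 10 or more reads.

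The tiles, the 14 gene lists and the rules were chosen with earlier results of these data known. Genes were named if they lay in the 15 widest domains, in the 5 strongest domains of at least 2 tiles or in the 5 largest rises or falls among domains with at least 200 reads, or if they were the highest, the lowest or the exceptions of a list, or deleted. Families picked by symbol, and genes said to be picked afterwards, fell outside this rule. Some genes that the rule names are not reported here. No test was made, as each group had 1 library. Alternatives covered the limits, use of both libraries, H3K9me2, merging, start definition, scaling and trimming. Tiles chosen on 1 genotype were added after seeing the data.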

Additional observations from a re-analysis of the deposited data

Results flagged for a closer look

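Chromosome X had been left out of the set, and 6 of its 83326 tiles (0.0072%) met the same limits, which was flagged as signal in data outside the main measurement. Their mean log2 values of H3K27me3 lay between 1.55 and 1.67, and 1 of them lay at Sox3, a factor of the neural tube. The median tile of chromosome X held 8 and 6 reads of H3K27me3 in Dicer KO and Dicer KO/Dnmt1 cKO against 19 and 15 on the autosomes, and likewise 6 and 7 against 13 and 16 for H3K9me2 and 6 and 6 against 13 and 14 for H3K9me3. All 3 marks were therefore low there on the scale of the limits, and the part of this in the count of 6 was not tested.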

How the results depend on the processing

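Of 59 alternative values, 34 moved by less than the counting interval or, for counts, by less than 1.5 times, 25 moved further, and none changed direction. A limit of 2 for H3K27me3 gave 2129 tiles in 1158 domains, a start in 49.9% of domains, a median of 73 CpG, H3K9me2 at -0.74 on the log2 scale relative to all autosomal tiles (-0.23 as reported), 45.02% of the developmental transcription factors, and differences between genotypes of -0.49 for H3K27me3, 0.20 for H3K9me2 and 0.020 for H3K9me3. Requiring both libraries of a mark to pass gave 44 CpG, H3K9me2 at -0.32, 54.1% of the factors and -0.35 for H3K27me3. H3K9me2 stood at -0.25 with an H3K9me3 limit of 0.5 and at -0.23 without tiles of high H3K9me2. The share of domains with a start was 42.5% with gaps of 1 tile merged, 34.5% for coding genes only and 62.4% for domains of at least 2 tiles, and 82.3% of the factors had an H3K27me3 tile at or beside the start. The H3K27me3 difference was -0.33 as a median over domains, -0.37 without the richest 1% of tiles, -0.43 for tiles chosen on Dicer KO and -0.25 for tiles chosen on Dicer KO/Dnmt1 cKO, and the H3K9me2 difference was 0.12 in the former. H3K9me3 differed by 0.060 after scaling to the median. No paired analysis was possible because there was 1 library per group, and none could be left out. At a median of 65 reads per H3K27me3 tile in Dicer KO/Dnmt1 cKO, differences of single tiles are wide, and 526 domains with at least 200 reads had an interval that held 0.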

Other observations

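The H3K27me3 tiles without a CpG-rich window were a majority, 4290 of 7620. They had a median GC content of 50.2% and 26 CpG per tile, 5.04% of them held a start, and 41.5% lay outside genes. H3K27me3 stood at 4.84 times the mean tile in Dicer KO and 4.05 in Dicer KO/Dnmt1 cKO, and H3K9me2 at 1.03 and 1.12, near the level of the rest of the autosomes. The difference between genotypes in H3K27me3 was -0.26.

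Hairpins of miRNAs outside the widest domains reached levels like those of the developmental genes. Mir129-2, a brain miRNA, lay in a tile at 10.0 times the mean in Dicer KO and 6.74 in Dicer KO/Dnmt1 cKO. Mir1247, beside Dio3, stood at 8.06 and 6.49, Mir615, of the Hoxc cluster, at 5.96 and 4.18, and Mir137, of neurons, at 4.20 and 3.68. Mature RefSeq sequences (GRCm38.p6 table) of these 4, picked after their values were seen, are shown with bases 2 to 8 in capitals, and no seed was shared between them.
miR-129-5p: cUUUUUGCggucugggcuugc
miR-1247-5p: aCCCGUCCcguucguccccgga
miR-137-3p: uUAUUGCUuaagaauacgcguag
miR-615-3p: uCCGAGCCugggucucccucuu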
